A study of Mus musculus with 4 samples.

Results

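The Notch pathway was followed through 34 listed genes, chosen by name as receptors, ligands, modifiers, cleavage enzymes, nuclear partners and *Hes* and *Hey* target genes, of the 18193 genes measured on the arrays. A single-symbol probe set, one that the platform annotation ties to 1 gene symbol, was found for 33 of them, and *Maml3* has none. RNA was hybridised to 4 mouse expression arrays, 1 for each of 4 groups: wild-type whole bodies and *Hand2* mutant whole bodies at embryonic day (E) 11.5, and wild-type heads and *Hand2* mutant heads at E12.5. All embryos were on a mixed C57BL/6J x ICR background. The mutants are *Hand2* CAT/+; *Wnt1-Cre* embryos (hereafter Hand2NC), in which *Wnt1-Cre*, a Cre driver active in the neural crest lineage, cuts out a floxed cassette so that crest cells overexpress *Hand2*, a basic helix-loop-helix factor of the lower jaw. The controls are labelled wild-type, with neither allele, and an effect of Cre itself cannot be told apart from that of *Hand2* on these arrays. The neural crest is a fraction of either tissue, so its RNA was diluted by that of all other cells.

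Notch signalling passes between touching cells. Ligands of the Jagged and Delta-like families on 1 cell bind Notch receptors on its neighbour, the receptor is cut first by a metalloprotease and then by gamma-secretase, and the freed intracellular domain joins the DNA-binding protein Rbpj and a Mastermind-like coactivator to switch on *Hes* and *Hey* repressor genes. In the embryo the pathway is known for keeping neural progenitors from differentiating, for timing somite formation, for shaping arteries, and, through *Jag1*, for patterning the upper part of the facial skeleton.

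The Rbpj protein recognises a short sequence whose core, TGGGAA, lies in front of several Notch target genes. It was searched for on both strands (TTCCCA is the same core on the opposite strand) in the 250 bases before each annotated start in RefSeq promoters of build GRCm38.p6. The core was found in 9 of 36 promoters (25%) of the 28 listed genes that had a promoter sequence, against 7094 of 32851 promoters (21.6%) of all genes, so that its share among Notch pathway genes lay near that of any promoter. The genes with it were *Lfng*, *Psen2*, *Rbpj*, *Maml2*, *Maml3*, *Hes5*, *Hes7* and *Hey2*, and *Mfng*, *Mib1*, *Hes1*, *Hes3*, *Hey1* and *Heyl* had no entry. The matches of *Hes5* and *Hey2*, a *Hes* and a *Hey* target, and of *Lfng*, a modifier, are shown because these genes recur in the comparisons; they were picked after their values were seen. Capitals mark the core, and each stretch reads 5′ to 3′ on the gene's own strand.
Hes5, chr4:154960685-154960714, plus strand, core beginning 226 bases before the start: agggcgagcgcgTTCCCAcagcccggacat
Hes5, chr4:154960829-154960858, plus strand, core beginning 82 bases before the start: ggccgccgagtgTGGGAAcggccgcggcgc
Hey2, chr10:30842973-30843002, minus strand, core beginning 207 bases before the start: tgcgcggtggcaTTCCCAcgcctctgccaa
Lfng, chr5:140607194-140607223, plus strand, core beginning 135 bases before the start: ccagctgggtggTTCCCAgccccttgtccg
Lfng, chr5:140607221-140607250, plus strand, core beginning 108 bases before the start: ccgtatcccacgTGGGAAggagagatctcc
*Hes5* and *Lfng* thus each hold the core once on either strand, and *Hey2* holds it once. A match is a description of the letters and shows no binding.

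A gene's value is the signal of its brightest probe set, on a linear scale with each array brought to a trimmed mean of 500, and a gene was kept in a comparison when the brighter of its arrays reached the median of that array, a signal of 97.2 to 105.8. Of the 33 genes, 29 were kept in each of the 4 comparisons and 4 in none. *Dll4*, a ligand of endothelial cells, had signals between 34.9 and 57.7 over the 4 arrays, *Maml2*, a coactivator, 1.28 to 11.4, *Hes3*, a *Hes* repressor, 1.64 to 57.9, and *Hes7*, the oscillating repressor of the somite clock, 13.2 to 82.3. Since each group has 1 array of pooled RNA, no difference has a replicate check and no p-value was computed. A difference was counted at 2-fold or more, and as a finer yardstick it was set against the local spread, a robust standard deviation (scaled from the median absolute deviation) of log2 changes among 500 genes of like signal, which holds measurement error and real change together. In whole tissue, fewer cells of a type and less RNA per cell cannot be told apart.

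Tissue markers followed the labels. Heart muscle, liver and trunk *Hox* genes were on at E11.5, with 9 of 10 heart muscle, 6 of 7 liver and 9 of 10 *Hox* genes kept when heads were set against bodies, and in heads 6 of 10, 5 of 7 and 10 of 10 of them lay below the array median. Of the markers of presomitic mesoderm and somites, 5 of 9 (*Tbx6*, *Msgn1*, *Mesp2*, *Ripply2* and *Cer1*) lay below the median in every array, and the other 4 (*Meox1*, *Tcf15*, *Uncx* and *Pax1*) above it, with signals of 176.0 to 576.7. Of the 3 probe sets of *Hand2*, 1 read 67.1 in wild-type and 313.8 in Hand2NC at E11.5, and 33.4 and 706.3 at E12.5. The brightest set read 1214 and 1244 at E11.5 and 591.8 and 839.4 at E12.5. The dimmest, far below the array medians, read 7.82 and 1.59, then 3.94 and 2.63. At E12.5 the 3 Y-linked genes *Kdm5d*, *Eif2s3y* and *Uty* summed to 2035 in wild-type heads and to 25.1 in Hand2NC heads, against 1734 and 1864 at E11.5, so at E12.5 genotype and the sexes of the pooled embryos cannot be told apart.

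To see whether *Hand2* in the neural crest moved Notch signalling, Hand2NC was first compared with wild-type at E11.5. None of the Notch pathway genes reached 2-fold (0 of 29), where 53 of all 11883 genes (0.446%) did. The brightest probe sets of the receptors and of the nuclear complex differed by at most 0.11 on the log2 scale, and the largest differences among brightest sets were lower signals of *Lfng*, *Jag2* and *Mfng* and higher signals of *Ncstn* and *Hes5* in Hand2NC. The log2 change ran from -0.43 to 0.35, with a median of -0.026 beside -0.011 over all genes, and 12 genes were higher and 17 lower (9 higher with arrays centred on their medians). Beyond the local spread lay 9 of 29 (31%), a share close to the 33.6% of all genes: *Mib1*, *Adam10* and *Hes5* on the higher side and *Jag2*, *Dll1*, *Lfng*, *Mfng*, *Hey1* and *Nrarp* on the lower side.

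At E12.5, in heads, 1 of 29 reached 2-fold (3.45%), against 47 of 11814 genes (0.398%). That gene was *Jag2*, a ligand whose loss is known to cleave the palate. The largest differences after it were *Lfng* and *Ncstn*, lower in Hand2NC, and *Hes5*, higher. Over the 29 the log2 change ran from -1.10 to 0.48, with a median of 0.017 beside 0.003 over all genes, and 15 were higher and 14 lower (21 higher with arrays centred on their medians). Beyond the local spread lay 9 of 29 (31%), close to 33.4% of all genes: *Numb*, *Rbpj*, *Maml1*, *Hes1* and *Hes5* were higher and *Jag2*, *Dner*, *Lfng* and *Ncstn* lower.

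**Figure D1:**
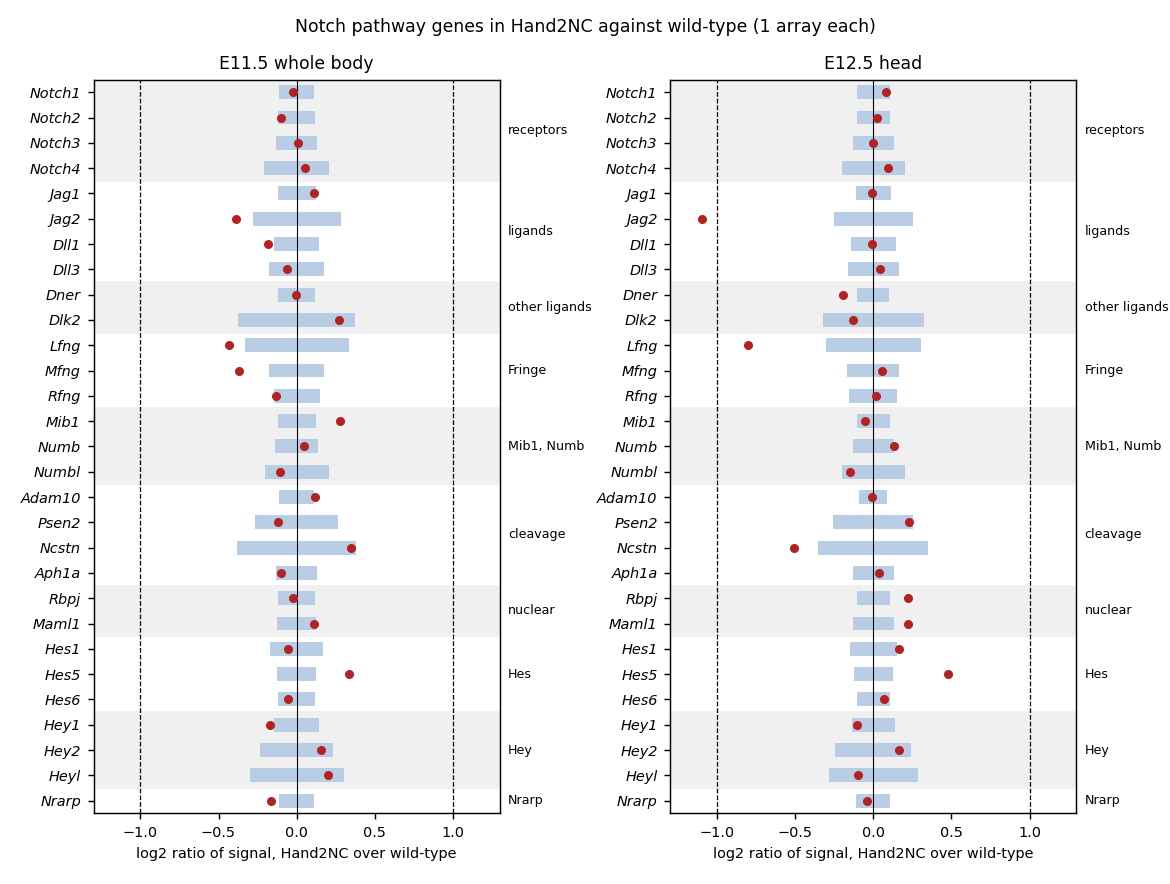
Points give the log2 ratio of signal, Hand2NC over wild-type, for each of the 29 Notch pathway genes above the filter at E11.5 (whole body, left) and E12.5 (head, right), from 1 array each; bars give the local spread to either side of 0 and dashed lines mark 2-fold. *Jag2* at E12.5 alone passes a dashed line, and 9 points at each stage lie outside their bars.

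Of the 29 genes, 3 lay beyond the local spread at both stages, and all 3 went the same way at E11.5 and E12.5: *Jag2* and *Lfng* were lower and *Hes5* was higher. They make up 10.3% of the 29, where 644 of the 11449 genes kept at both stages (5.62%) lay beyond the spread in the same direction. In any direction, 1401 of the 11449 genes lay beyond the spread at both stages, so the share of 3 of 29 was not above that of all genes. The stages use separate arrays.

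*Jag2* had a signal of 191.9 in wild-type and 146.8 in Hand2NC at E11.5, and of 295.4 and 138.3 at E12.5. It was thus 2.14-fold lower in Hand2NC heads (log2 change -1.10, local spread 0.25) and 1.31-fold lower at E11.5 (-0.39, spread 0.28). The wild-type head gave the highest of the 4 signals and the Hand2NC head the lowest. The other probe set of *Jag2* went the opposite way: it read 93.5 and 108.8 at E11.5 and 129.1 and 147.6 at E12.5, a log2 change of 0.22 and 0.19. With the mean of both probe sets the E12.5 change was -0.45, short of 2-fold, so the call rests on 1 probe set.

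*Lfng* codes for a Fringe enzyme, which adds a sugar to Notch receptors and so sets which ligands they answer to. Its signal was 180.0 in wild-type and 133.4 in Hand2NC at E11.5 (log2 change -0.43, spread 0.33) and 183.3 and 105.1 at E12.5 (-0.80, spread 0.30). Both Hand2NC signals were below both wild-type signals, and the difference at E12.5 was 1.75-fold. The other probe set of *Lfng* was dim, at 1.90 to 21.4, below the median of every array.

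*Hes5*, the *Hes* repressor of neural progenitors, read 1304 in wild-type and 1644 in Hand2NC at E11.5 (0.33, spread 0.12) and 1726 and 2399 at E12.5 (0.48, spread 0.12). It was 1.26-fold and 1.39-fold higher in Hand2NC. This probe set is of a kind that may bind other transcripts, and the other set of *Hes5* gave 512.7 and 523.1 at E11.5 and 794.5 and 855.9 at E12.5, a log2 change of 0.029 and 0.11. Both sets were thus higher in Hand2NC, except that the other set stood at -0.031 at E11.5 with arrays centred on their medians, and the amounts differed. The spread was taken for the brightest set only, so the place of *Hes5* beyond it at both stages rests on 1 probe set. The summed signal of 8 neural progenitor markers, the cells in which *Hes5* is known to act, was 39323 in wild-type and 39124 in Hand2NC at E11.5 and 46859 and 46986 at E12.5, and their median log2 change was 0.012 and 0.010. The sum is mostly that of *Vim* and *Fabp7*. By any amount, 4 of the 8 were higher in Hand2NC and 4 lower at E11.5. Beyond the spread 3 of the 8 were higher and 0 lower, where 33.6% of all genes lay beyond it in either direction. The 3 were *Nes*, an intermediate filament of progenitors (0.90), *Sox1* (0.35) and *Sox2* (0.13), the last pair being progenitor transcription factors. Their part in the *Hes5* value was not tested.

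**Figure D2:**
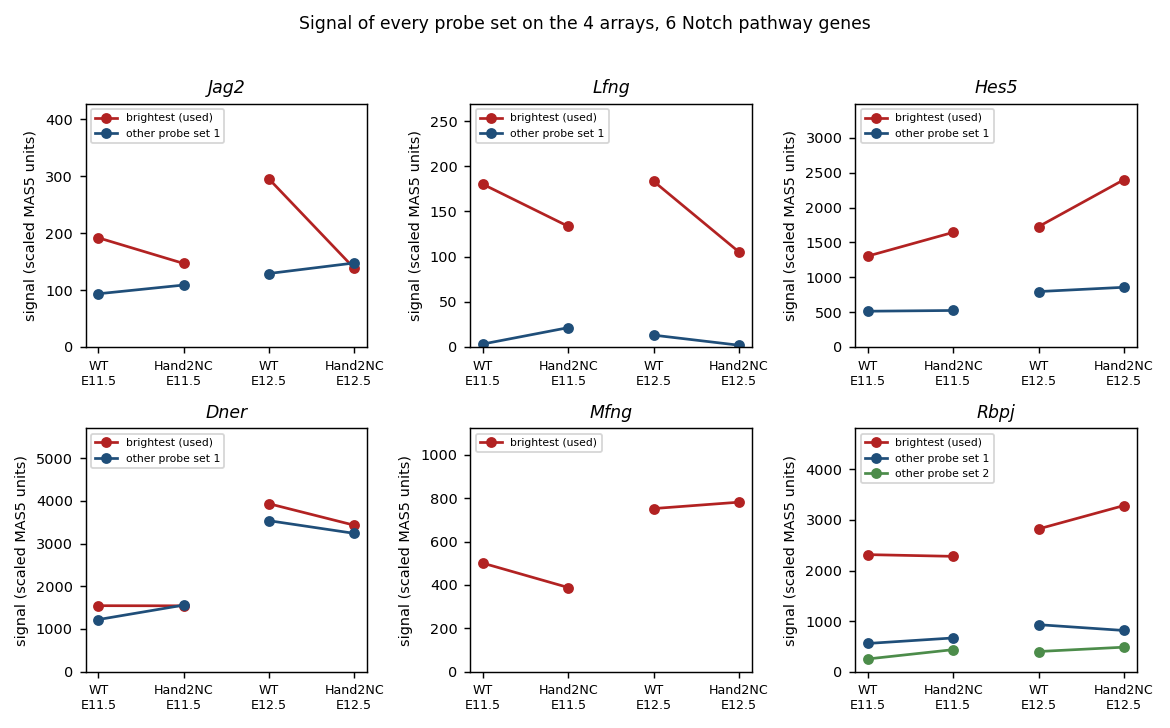
Signal (scaled MAS5 units, linear axes from 0) of every single-symbol probe set of *Jag2*, *Lfng*, *Hes5*, *Dner*, *Mfng* and *Rbpj* on the 4 arrays, with a line joining wild-type and Hand2NC of 1 stage; red is the brightest set, whose value was used, and blue and green are the others. The lines of *Jag2* run in opposite directions. Those of *Hes5* run upward to Hand2NC in both sets, but by far less in the set not used. Those of *Dner* lie far higher in E12.5 heads than in E11.5 bodies in both sets. These 6 genes were chosen after their values were seen.

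The brightest probe sets of the 4 receptors differed little between genotypes. *Notch1*, the receptor of neural progenitors and arteries, read 1815 in wild-type and 1783 in Hand2NC at E11.5 and 2769 and 2925 at E12.5. *Notch2*, a receptor of facial and kidney tissue, read 2134 and 1990, then 2203 and 2242. Their log2 changes were -0.026 and -0.10 at E11.5 and 0.079 and 0.025 at E12.5. *Notch3*, the receptor of vessel wall cells, read 1126 and 1133 at E11.5 and 1300 and 1299 at E12.5, changes of 0.009 and -0.001. *Notch4*, an endothelial receptor, read 321.7 and 333.3, then 410.7 and 437.7, changes of 0.051 and 0.092. All 8 of these values lay within the local spread. The other probe sets above the filter were lower in Hand2NC: that of *Notch1* by 0.43 on the log2 scale at E11.5 (305.8 and 226.6) and by 0.19 at E12.5, and that of *Notch3* by 0.12 and 0.40.

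Among the other ligands, *Jag1*, which patterns the upper jaw, read 1679 in wild-type and 1817 in Hand2NC at E11.5 and 2099 and 2087 at E12.5, changes of 0.11 and -0.008. Its other probe set above the filter gave 0.09 at E11.5 (296.5 and 315.8) and was lower in Hand2NC at E12.5 (473.7 and 399.9, -0.24). *Dll1*, the ligand of neural progenitors and the presomitic mesoderm, read 778.3 and 685.2 at E11.5 (-0.18, spread 0.15) and 928.8 and 923.5 at E12.5 (-0.008). *Dll3*, a divergent Delta-like protein that dampens signalling inside the cell, read 503.4 and 482.3, then 610.6 and 629.9. Among the brightest sets of these ligands, *Dll1* at E11.5 was the only value beyond the spread. *Dner*, a ligand of neurons, read 1546 and 1543 at E11.5 and 3935 and 3431 at E12.5. It was level at E11.5 (-0.003), where its other probe set was higher in Hand2NC (1221 and 1559, 0.35), and lower in Hand2NC heads by 0.20 on the log2 scale (spread 0.10). All 9 neuron markers, such as *Tubb3* and *Gap43*, were also lower in Hand2NC heads, 7 of them beyond the spread, with a median of -0.15 and summed signals of 45811 in wild-type and 41383 in Hand2NC; the part of neurons in the *Dner* value was not tested. *Dlk2*, a ligand related to *Dlk1*, read 92.8 and 111.8 at E11.5 and 150.0 and 136.9 at E12.5, within the spread at both. Its other probe set was higher in Hand2NC at E11.5 (73.6 and 106.3, 0.53) and level at E12.5 (0.005).

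The other Fringe genes were *Mfng* and *Rfng*. *Mfng* read 500.1 in wild-type and 387.8 in Hand2NC at E11.5 (-0.37, spread 0.17) and 752.1 and 781.5 at E12.5 (0.055). *Rfng* read 808.6 and 737.6 at E11.5 (-0.13) and 1000 and 1012 at E12.5 (0.017). The brightest sets of all 3 Fringe genes were thus lower in Hand2NC at E11.5, 2 of them beyond the spread, while at E12.5 *Lfng* alone was. The other set of *Rfng*, above the filter, was higher in Hand2NC at E11.5 (83.5 and 108.1, 0.37), and the mean over probe sets was above 0 at E11.5 for *Rfng* (0.12) and, through its dim set, for *Lfng* (1.13). *Mib1*, the ubiquitin ligase that lets ligands be pulled into the sending cell, read 2464 and 2989 at E11.5 (0.28, spread 0.12) and 2815 and 2709 at E12.5 (-0.055). Its other 2 probe sets were also higher in Hand2NC at E11.5, by 0.47 and 0.65. *Numb*, an inhibitor that sends Notch for breakdown, read 1096 and 1130, then 1117 and 1226 (0.135 at E12.5, spread 0.131), and *Numbl*, its close relative, 377.9 and 350.5, then 406.1 and 366.7.

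Of the enzymes that cut the receptor, *Adam10*, the metalloprotease, read 4708 in wild-type and 5108 in Hand2NC at E11.5 (0.12, spread 0.11) and 4585 and 4562 at E12.5. *Psen2*, *Ncstn* and *Aph1a* code for parts of gamma-secretase. *Psen2* read 236.8 and 218.2 at E11.5 and 210.6 and 246.3 at E12.5, *Ncstn* 100.6 and 128.2, then 126.9 and 89.0, and *Aph1a* 1154 and 1077, then 1175 and 1207. *Ncstn* was higher in Hand2NC at E11.5 (0.35) and lower at E12.5 (-0.51, spread 0.35), with signals close to the array medians. In the nucleus, *Rbpj* read 2315 and 2281 at E11.5 (-0.021) and 2823 and 3285 at E12.5 (0.22, spread 0.10). Its other probe sets went apart from it: at E11.5 they were higher in Hand2NC by 0.26 and 0.79 (558.2 and 667.1; 252.1 and 435.8), with a mean over all sets of 0.34, and at E12.5 they gave -0.19 and 0.28. *Maml1*, the coactivator that binds with it, read 1608 and 1733 (0.11), then 1580 and 1840 (0.22, spread 0.13), and its other probe set above the filter gave -0.14 at E12.5.

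By their brightest probe sets, the target genes besides *Hes5* differed by at most 0.20 on the log2 scale. *Hes1*, the widely used *Hes* repressor, read 613.3 in wild-type and 589.3 in Hand2NC at E11.5 (-0.058) and 608.7 and 681.8 at E12.5 (0.16, spread 0.15). *Hes6*, a relative that opposes *Hes1* in neurons, read 2473 and 2381, then 2798 and 2932. The *Hey* genes act in heart and vessels. *Hey1* read 951.1 and 846.3 at E11.5 (-0.17, spread 0.14) and 1211 and 1128 at E12.5 (-0.10). *Hey2* read 259.3 and 288.6, then 374.5 and 419.5, higher in Hand2NC by 0.15 and 0.16 and within the spread. *Heyl* read 144.3 and 166.0, then 162.6 and 151.9. *Nrarp*, a target that feeds back to end the signal, read 2265 and 2017 at E11.5 (-0.17, spread 0.11) and 2445 and 2377 at E12.5 (-0.041). Its other probe set, above the filter, was also lower in Hand2NC at E11.5 (264.9 and 223.6, -0.24) but higher at E12.5 (305.3 and 396.6, 0.38). The targets did not share a direction at either stage: of the 7 kept, *Hes5* included, 3 were higher and 4 lower in Hand2NC at E11.5, and 4 higher and 3 lower at E12.5 (5 and 2 with arrays centred on their medians).

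A broader list, which also holds genes not confined to the pathway, such as *Dvl1*, *Akt1s1* and *Kcnk1*, showed a like picture. Of its 52 genes, 46 have a single-symbol probe set. At E11.5, 40 were kept and 0 reached 2-fold, with a median of -0.038 and 9 higher and 5 lower beyond the spread, beside 0.446% of all genes at 2-fold and 33.6% beyond the spread. *Spen*, a corepressor that binds Rbpj, differed most, with 186.0 in wild-type and 114.4 in Hand2NC (-0.70). At E12.5, 42 were kept, 0 reached 2-fold, the median was 0.012, and 6 were higher and 6 lower beyond the spread, beside 0.398% and 33.4% of all genes. *Dlk1*, a ligand that blocks signalling, read 2199 in wild-type and 3234 in Hand2NC heads (0.56), and *Tle2* and *Tle3*, Groucho corepressors of Hes proteins, were lower by 0.47 and 0.31 (437.8 and 316.2 for *Tle2*, 2863 and 2304 for *Tle3*). Of the proneural genes that Hes proteins repress, 7 of 8 with a probe set were kept: at E11.5 all 7 were higher in Hand2NC, or 5 of 7 with arrays centred on their medians, 2 of 7 beyond the spread (33.6% of all genes), with a median of 0.13 (-0.011 over all genes, 5613 of 11883 higher), and at E12.5 5 of 7 were higher, 2 of 7 beyond it (33.4% of all genes), with a median of 0.075. *Insm1* was level at E11.5, with 592.4 and 601.7 (0.023), and at E12.5 read 1329 in wild-type and 1640 in Hand2NC (0.30, spread 0.15).

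The levels were then compared between E12.5 heads and E11.5 whole bodies within each genotype, where stage and tissue differ together and cannot be told apart. In Hand2NC the Y-linked sum also went from 1864 in bodies to 25.1 in heads, so there the sexes of the pooled embryos cannot be told apart from stage and tissue either. In wild-type, 1 of 29 Notch pathway genes reached 2-fold (*Dner*, 3.45%), against 852 of 12059 genes (7.07%). In Hand2NC, 2 of 29 did (*Dner* and *Mfng*, 6.9%), against 613 of 11990 genes (5.11%). Most members of the pathway were nonetheless higher in the head by any amount, 25 of 29 in wild-type and 23 of 29 in Hand2NC. Their medians were 0.26 and 0.21, beside 0.026 and 0.040 over all genes, of which 6318 of 12059 and 6588 of 11990 were higher. Beyond the local spread, 8 of 29 were higher in wild-type heads and 12 of 29 in Hand2NC heads, with 0 lower in either. Over all genes, 2361 of 12059 were higher and 1851 lower beyond it in wild-type, and 2396 of 11990 higher and 1719 lower in Hand2NC. With each array centred on its median instead, the wild-type median was 0.13, beside -0.097 over all genes, and 19 of 29 were higher, or 22 after quantile normalization; in Hand2NC it was 0.21, and 23 were higher.

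Taking both genotypes, 20 of 29 (69%) were higher in the head in each, against 42.9% of 11801 genes; these were *Notch1* to *Notch4*, *Jag1*, *Dll1*, *Dll3*, *Dner*, *Dlk2*, *Mfng*, *Rfng*, *Numb*, *Numbl*, *Aph1a*, *Rbpj*, *Hes5*, *Hes6*, *Hey1*, *Hey2* and *Nrarp*. Centring on array medians lowered both shares, to 15 of 29 (51.7%) and 34.8%, and quantile normalization to 17 of 29 (58.6%) and 39.5%. Only *Dner* was at least 2-fold higher in both genotypes (226 genes in all, 1.92%), and 0 of 29 were at least 2-fold lower in both (203 genes, 1.72%). *Adam10* was lower in the head in both (-0.038 and -0.16), though in wild-type its sign turned after quantile normalization and loess.

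**Figure D3:**
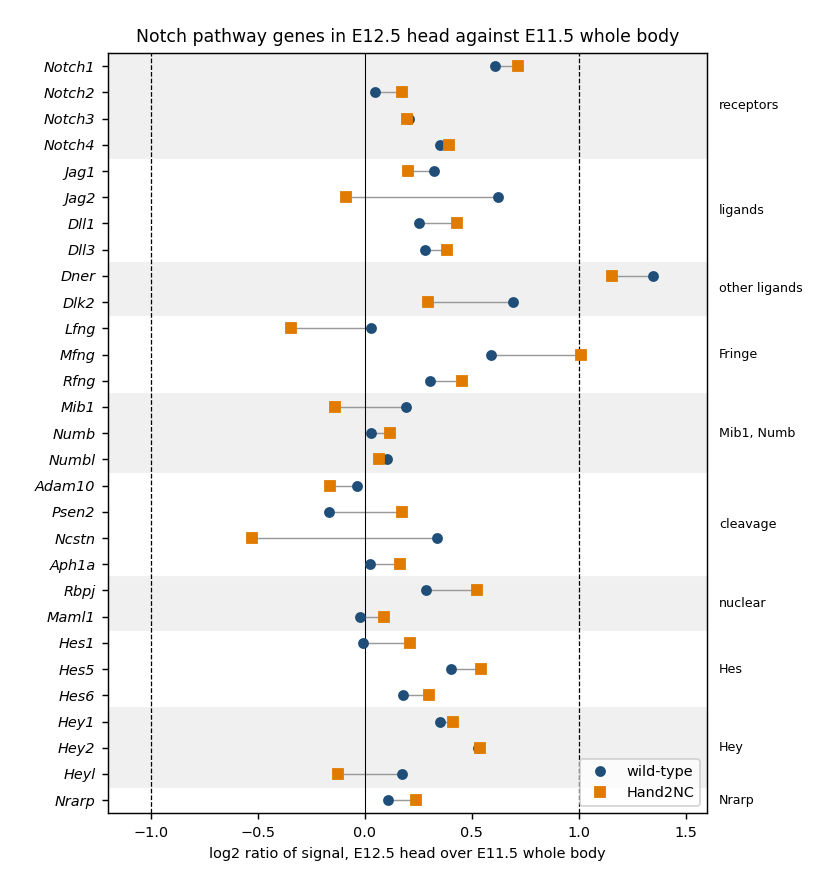
The log2 ratio of signal, E12.5 head over E11.5 whole body, for the 29 Notch pathway genes above the filter, in wild-type (blue circles) and Hand2NC (orange squares), 1 array each; grey lines join the genotypes and dashed lines mark 2-fold. Points lie mostly right of 0, with *Dner* past 2-fold in both genotypes, *Mfng* in Hand2NC, and *Jag2*, *Lfng*, *Mib1*, *Psen2*, *Ncstn*, *Maml1*, *Hes1* and *Heyl* on opposite sides of 0 in the genotypes.

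*Dner* rose 2.54-fold in wild-type heads and 2.22-fold in Hand2NC heads (log2 change 1.35 and 1.15). Its other probe set gave 1.53 and 1.05 (1221 and 1559 in bodies, 3537 and 3240 in heads), so both sets passed 2-fold in both genotypes. All 9 neuron markers were higher in heads in both genotypes, with medians of 1.06 in wild-type and 0.89 in Hand2NC and summed signals of 24950 and 45811 in wild-type body and head and of 24501 and 41383 in Hand2NC. The part of the neurons in the head values was not tested.

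*Mfng* rose 2.01-fold in Hand2NC heads (1.01) and was higher by 0.59 on the log2 scale in wild-type heads. Its signal in Hand2NC bodies, 387.8, was the lowest of the 4 arrays. The change in Hand2NC lay at the cutoff, at 0.97 after quantile normalization and 0.96 after loess. *Notch1* was 1.53-fold higher in wild-type heads (0.61) and 1.64-fold in Hand2NC heads (0.71), and its other probe set gave 0.29 and 0.54. *Hey2* was higher by 0.53 and 0.54, *Hey1* by 0.35 and 0.41, and *Hes5* by 0.40 and 0.55, with 0.63 and 0.71 for the other set of *Hes5*. For *Notch1*, *Hey2*, *Hey1* and *Hes5* the brightest sets gave values of like size in both genotypes.

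*Jag2* differed in that respect: it was 1.54-fold higher in wild-type heads (0.62) and nearly level in Hand2NC heads (-0.086), values that share their head arrays with the comparison of genotypes. The other probe set of *Jag2* gave 0.47 and 0.44. *Ncstn* was higher by 0.33 in wild-type and lower by 0.53 on the log2 scale in Hand2NC, and *Lfng* stood at 0.027 and -0.35 (in wild-type below 0 under each rescaling but the deposited values). *Dlk2*, at 0.69 and 0.29, and *Rbpj*, at 0.29 and 0.53, were higher in both.

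By role, all 4 receptors were higher in heads by any amount in both genotypes, with medians of 0.28 and 0.29. *Notch2* in wild-type was lower with arrays centred on their medians, and *Notch3* in Hand2NC stood at -0.14 with suffix probe sets left out. Beyond the local spread lay 1 of the 4 receptors in wild-type and 2 in Hand2NC. The *Hey* genes had medians of 0.35 and 0.41. The ligands of the Jagged and Delta-like families had medians of 0.30 and 0.29. The cleavage enzymes centred on 0, with medians of -0.006 and 0.001. The 8 neural progenitor markers had medians of 0.41 and 0.47. In wild-type 7 were higher and 1 lower (*Prom1*, -0.34), and in Hand2NC 6 were higher and 2 lower (*Nes*, -0.64, and *Prom1*, -0.21). Their summed signal, mostly that of *Vim* and *Fabp7*, went from 39323 to 46859 in wild-type and from 39124 to 46986 in Hand2NC. Endothelial markers, 9 of 10 kept, had medians of -0.12 and -0.11, with 4 higher and 5 lower in each genotype. They ran from -0.64 to 0.41 in wild-type and from -0.40 to 0.51 in Hand2NC. *Notch4* was higher in heads by 0.35 (spread 0.44) and 0.39 (spread 0.35). *Notch3* was higher by 0.21 (spread 0.34) and 0.20 (spread 0.30), beside mural cell markers with medians of 0.29 and 0.27.

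In the broader list, 0 of 42 genes reached 2-fold in wild-type and 0 of 41 in Hand2NC, beside 7.07% and 5.11% of all genes. Its medians were 0.10 and 0.14. With arrays centred on their medians the wild-type median was -0.022, and 18 of 42 were higher in place of 33. *Dtx1*, a ubiquitin ligase and target of the pathway, rose most in wild-type heads, from 354.6 to 653.9 (0.88), and *Tle2* next, from 244.2 to 437.8 (0.84). In Hand2NC *Dtx1* went from 364.9 to 610.8 (0.74), while *Tle2* was nearly level, from 298.3 to 316.2 (0.084). The largest rise there was that of *Spen*, from 114.4 to 200.3 (0.81), which was level in wild-type (0.015). Its low signal in Hand2NC bodies is the same value that gave the E11.5 difference between genotypes. The proneural genes had medians of 0.78 and 0.73. *Insm1*, a factor of newborn neurons, went from 592.4 to 1329 in wild-type (1.17) and from 601.7 to 1640 in Hand2NC (1.45), and *Olig2*, a factor of motor neuron and oligodendrocyte progenitors, from 66.3 to 184.1 in wild-type (1.47) and from 102.2 to 169.9 in Hand2NC (0.73). *Neurod4*, a neuronal differentiation factor, was lower in heads in both, from 248.2 to 172.7 (-0.52, spread 0.52) and from 263.6 to 169.2 (-0.64, spread 0.44).

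**Figure D4:**
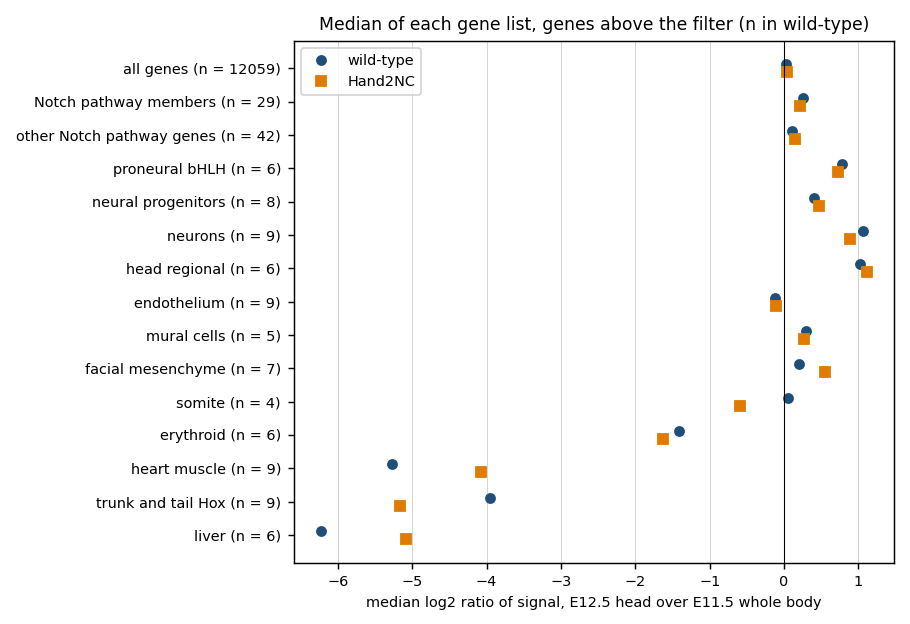
Median log2 ratio of signal, E12.5 head over E11.5 whole body, of each gene list over its genes above the filter, in wild-type (blue circles) and Hand2NC (orange squares), 1 array each; n is the number of genes in wild-type. The Notch pathway medians (0.26 and 0.21) lie above that of all genes and below those of neurons (1.06 and 0.89) and proneural genes (0.78 and 0.73), with heart muscle, trunk *Hox* and liver genes far to the left.

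Probe sets of a gene were read against each other as the only repeat within an array. Of the other probe sets above the filter, from 16 of the 29 genes, 10 of 19 had the sign of the brightest set at E11.5 and 9 of 20 at E12.5 between genotypes. Between heads and bodies 18 of 20 did so in wild-type and 14 of 19 in Hand2NC. Between genotypes the other probe sets were thus split nearly evenly in sign.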

How the data were processed

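RNA of embryos was pooled within each group, and 1 Affymetrix mouse genome array (3′ probe sets, 1 colour) was hybridised per group. The deposited values are linear signal intensity values, 1 for each of 45101 probe sets, made by the authors with MAS5, as the submitters' processing notes name it. No version, detection calls or normalization target are given in the sources used here. The E11.5 tissue is the whole body per the labels, while a legend of the study names heads.

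The 64 control probe sets were left out. Arrays were brought to a common 2% trimmed mean of 500 (497.6 to 497.8 as deposited) and log2 was taken. Of the probe sets, 34945 have 1 gene symbol, 932 several and 9160 none; only the first were used, and 34741 matched the RefSeq gene table with 0 symbols changed. A gene took its probe set of highest mean log2 signal over the 4 arrays. With 1 array per group there is no test: the number of arrays limits the precision, ratios were computed over all genes, and those of the pathway were printed. The 2-fold cutoff is the study's, which names neither a filter nor a probe set rule. Members, lists and settings were chosen with earlier results of these data known. Every member above the filter was named with its signals, and within each role the 3 largest log2 changes per comparison. Members of other lists were named after their values were seen. The counting was tested on simulated data. Alternatives covered scaling, filter, probe set, cutoff and the neighbours that set the spread. Analyses ran in Python 3.11.15 with pandas 2.3.3, numpy 2.4.6, statsmodels 0.14.6 (loess), scipy 1.17.1 (trimmed means) and matplotlib 3.10.9. Promoters are RefSeq sequences of GRCm38.p6.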

Additional observations from a re-analysis of the deposited data

How the results depend on the processing

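With 1 array per group, no count below has a replicate check, and signals near the array median limit the calls of *Jag2*, *Lfng* and *Ncstn*. No paired analysis was possible because each group has 1 array and no test was run. The count of Notch pathway genes at 2-fold at E11.5, 0 of 29, became 2 with no filter (*Maml2* and *Hes3*, both dim) and 2 with the mean over probe sets (*Lfng* and *Maml1*, each through a dim set). At E12.5 the count of 1 became 4 with no filter. It was 0 when the brighter array had to reach its 75th percentile, where *Jag2* is not kept. It was 3 with the mean over probe sets (*Notch2*, *Lfng* and *Numb*, without *Jag2*), 2 with any probe set (*Jag2* and *Adam10*) and 2 at a 1.5-fold cutoff. For head against body in wild-type, 1 became 3 with no filter, 2 with the mean over probe sets and 5 at a 1.5-fold cutoff. In Hand2NC, 2 became 1 after quantile normalization, 1 after loess, 4 with no filter and 5 with the mean over probe sets. Leaving scaling as deposited or centring on array medians kept each of the 4 counts, and the counts beyond the local spread stayed within 1.5 times with 200 or 1000 neighbours or with the 2 arrays compared setting the neighbours. Averaging probe sets moved several genes by over 1 on the log2 scale through a dim set. Among them, *Numb* at E12.5 went from 0.135 to 1.83, *Notch2* from 0.025 to -1.29, *Lfng* at E11.5 from -0.43 to 1.13, *Maml1* from 0.11 to -1.09 and *Psen2* from -0.12 to 0.95, and between heads and bodies in Hand2NC *Lfng* from -0.35 to -1.92 and *Numb* from 0.12 to 1.55; *Hes5* without suffix probe sets stood at 0.029 at E11.5 and 0.11 at E12.5.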
